A study of Homo sapiens with 2 samples.

Results

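The genes described here encode proteins of the spliceosome and its regulators, from the SRSF, HNRNP, SF3A, SF3B, PRPF and SNRP families. Every probe set whose single annotated symbol starts with one of these names was taken, and 1 pseudogene probe set was left out. This gave 219 probe sets of 67 genes, of 18239 genes with a single symbol on the array. Of the 67 genes, 63 had at least 1 retained probe set, meaning a probe set that reached its array's median on at least 1 array, as did 11272 genes in all. The rule sets members by name and uses no measured value, though it was chosen with earlier results of these data known.

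The anti-miR group was GFP-SAS cells given an antisense oligonucleotide of LNA and DNA that targets miR-361-3p, at 25 nM for 24 h. The control group was GFP-SAS cells given 25 nM of a non-target oligonucleotide for 24 h. SAS is an established human tongue squamous carcinoma line, and both groups are the same GFP-SAS line. Source and handling were given alike for both, and 10 ng of total RNA was labelled per array. Each group was 1 array, so no replicate error and no p-value can be given, and no difference below can be set against variation between cultures.

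Introns are removed from pre-mRNA by the spliceosome, which is built from small nuclear ribonucleoproteins (snRNPs) and many further proteins. The SNRP genes encode the Sm ring and specific proteins of the U1 and U2 snRNPs, SF3A and SF3B are subcomplexes of the U2 snRNP that hold the branch site, and most PRPF proteins belong to the U4/U6.U5 tri-snRNP or help remodel it. SRSF proteins have an arginine and serine rich tail and mostly favour exon inclusion, while HNRNP proteins coat nascent RNA and often favour skipping. Many SRSF and HNRNP genes also limit their own expression through alternative splicing of their own transcripts.

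The microRNA that the oligonucleotide was made to block is shown first, since it defines the comparison. The mature strand is from RefSeq (GRCh38.p14, chrX:85903641-85903663, minus strand), with the seed, bases 2 to 8, in capitals.
hsa-miR-361-3p: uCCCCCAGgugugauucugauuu

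Promoter windows are shown for the members past 1.5-fold that have a window in the RefSeq promoter table used here, so that the start regions of the lower and higher genes can be read side by side. Each window holds 300 bases, from 250 before to 50 after the transcription start. Capitals mark matches, on either strand, to 5 textbook motifs, which are the ETS core CCGGAA, the CCAAT box CCAAT, the E box CACGTG, the TATA box TATAAA and the Sp1 site GGGGCGGGG. HNRNPD, HNRNPU and HNRNPA3 were lower on the anti-miR array (chr4:82373942-82374241, minus strand; chr1:244864494-244864793, minus strand; chr2:177212544-177212843, plus strand).
HNRNPD: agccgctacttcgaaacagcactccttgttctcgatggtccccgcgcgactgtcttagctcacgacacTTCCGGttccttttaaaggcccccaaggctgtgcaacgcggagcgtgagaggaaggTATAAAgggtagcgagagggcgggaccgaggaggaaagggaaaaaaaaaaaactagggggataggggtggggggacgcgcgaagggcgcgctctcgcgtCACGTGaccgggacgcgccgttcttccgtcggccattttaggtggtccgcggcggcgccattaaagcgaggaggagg
HNRNPU: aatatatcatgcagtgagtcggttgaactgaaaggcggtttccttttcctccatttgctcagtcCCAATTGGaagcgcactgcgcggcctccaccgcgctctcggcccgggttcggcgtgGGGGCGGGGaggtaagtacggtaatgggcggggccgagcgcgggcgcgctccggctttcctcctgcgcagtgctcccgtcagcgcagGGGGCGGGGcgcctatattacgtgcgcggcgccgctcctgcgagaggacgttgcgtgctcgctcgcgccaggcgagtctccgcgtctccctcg
HNRNPA3: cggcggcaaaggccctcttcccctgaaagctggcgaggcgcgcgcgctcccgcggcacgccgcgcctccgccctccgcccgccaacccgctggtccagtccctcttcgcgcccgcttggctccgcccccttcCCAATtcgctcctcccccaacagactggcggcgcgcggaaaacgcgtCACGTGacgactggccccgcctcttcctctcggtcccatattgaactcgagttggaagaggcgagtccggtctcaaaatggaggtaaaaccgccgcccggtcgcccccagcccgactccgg
SF3A2, SF3B4 and PRPF4 were higher on the anti-miR array (chr19:2236574-2236873, plus strand; chr1:149927754-149928053, minus strand; chr9:113275408-113275707, plus strand).
SF3A2: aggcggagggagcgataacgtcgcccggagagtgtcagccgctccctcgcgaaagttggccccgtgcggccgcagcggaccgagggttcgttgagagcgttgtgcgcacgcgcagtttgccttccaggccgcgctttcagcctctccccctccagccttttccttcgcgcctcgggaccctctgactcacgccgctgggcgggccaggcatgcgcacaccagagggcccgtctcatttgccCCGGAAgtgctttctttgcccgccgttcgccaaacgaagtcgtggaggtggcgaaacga
SF3B4: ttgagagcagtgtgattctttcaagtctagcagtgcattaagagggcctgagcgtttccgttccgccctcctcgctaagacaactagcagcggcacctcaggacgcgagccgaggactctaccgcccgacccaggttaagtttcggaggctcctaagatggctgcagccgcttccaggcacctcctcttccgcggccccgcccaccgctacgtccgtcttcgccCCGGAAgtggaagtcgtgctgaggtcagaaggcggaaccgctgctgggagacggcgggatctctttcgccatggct
PRPF4: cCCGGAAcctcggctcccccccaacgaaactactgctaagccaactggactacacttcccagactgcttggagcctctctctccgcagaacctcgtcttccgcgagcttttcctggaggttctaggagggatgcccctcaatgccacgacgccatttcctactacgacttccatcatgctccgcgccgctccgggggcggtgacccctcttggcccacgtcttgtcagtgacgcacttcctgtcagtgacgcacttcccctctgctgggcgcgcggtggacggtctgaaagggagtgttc

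The windows of all 3 higher genes held the ETS core. Among the lower genes, HNRNPU and HNRNPA3 held the CCAAT box, and HNRNPD and HNRNPA3 the E box. HNRNPD also held the ETS core and the TATA box, and HNRNPU held the Sp1 site at 2 places. The pair of CCAAT letters in the HNRNPU window overlap on opposite strands. Over all measured members with a window, 27 of 57 genes held the ETS core (47.4%), against 26.6% of 15842 protein-coding genes. By family this was 8 of 10 SNRP, 3 of 3 SF3A, 3 of 5 SF3B, 5 of 9 PRPF, 6 of 20 HNRNP and 2 of 10 SRSF genes. The CCAAT box was in 17 of 20 HNRNP genes and in 30 of 57 measured members (52.6%), against 42.1% of protein-coding genes. In the other families it was in 6 of 9 PRPF, 4 of 10 SNRP, 1 of 5 SF3B, 2 of 10 SRSF and 0 of 3 SF3A genes. HNRNP genes had 31 windows for 20 genes, and a gene with more windows has more chances of a match. The E box was in 7 of 20 HNRNP genes (35%) and 8 of 57 measured members, against 10.9% of protein-coding genes. The other motifs were held by 12.3% of measured members for the TATA box (12.4% of protein-coding genes) and 21.1% for the Sp1 site (26.2%). Of HNRNP genes 7 of 20 (35%) held the Sp1 site. A match describes letters in these windows only and is not a binding site.

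Values below are log2 levels made by the authors with RMA, and a difference is the anti-miR level minus the control level. The median gene differed by 0.13, so family values are also given relative to it. A gene's level is the mean over its retained probe sets, and a ± is the SD of the difference over them. This is a spread between probe sets within the pair of arrays, which may overlap or read different transcripts, and not a replicate error. The highest of 23 nonspecific control probe sets was 7.16 in anti-miR cells, against 6.87 in control cells, and 55 of the 67 members had a probe set above these ends on both arrays. The spiked poly-A controls differed by 0.32 ± 0.19 (SD over their 12 probe sets). Hybridization controls differed by 0.09 ± 0.10 (SD over 9 probe sets). Of the squamous epithelial markers, 4 of 5 on the array were above the nonspecific ends on both arrays, KRT14 being the exception, and all 17 markers of leukocytes, fibroblasts, endothelium and muscle on the array were within them.

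The families differed in direction. HNRNP genes were mostly lower on the anti-miR array, SNRP, SF3A, SF3B and PRPF genes mostly higher, and SRSF genes were mixed. Of 21 measured HNRNP genes 16 lay below 0, against 37.7% of all genes, and 5 above 0 (23.8%), against 62.3% of all genes. Of the 31 genes of the other snRNP and PRPF families 28 lay above 0. Few genes passed 1.5-fold. At that threshold 5 of 63 members were higher (7.94%), against 8.23% of all genes, and 3 were lower (4.76%), against 14.2% of all genes. Over all spans the share of higher members was thus near the background and that of lower members below it. Of all genes with a genomic span of 50 kb and above 34.2% were lower, and only 4 members are that long. From 10 to 20 kb 8.70% of members were lower, against 3.01% of all genes. From 20 to 50 kb it was 5.56%, against 8.06%, and under 10 kb 0%, against 1.90%. The lower members from 10 to 20 kb were HNRNPU and HNRNPA3, both short of 1.5-fold with the brightest and with the median probe set. In order of span below 50 kb, 11.1%, 8.70% and 5.56% of members were higher, against 12.5%, 13.3% and 8.84% of all genes. Once the median of all genes was subtracted, 2 members were higher and 5 lower. The shares of all genes were not counted at that setting, so these counts have no background beside them. At 2-fold, 0 members were higher, against 1.23% of all genes, and 1 was lower, against 6.98% of all genes. Among genes whose level lay above that of the median gene, to which 62 of the 63 members belong, 10.1% were higher and 14.5% lower at 1.5-fold, and 1.17% higher and 6.26% lower at 2-fold. Of the 203 retained member probe sets 13 were at least 1.5-fold higher and 20 lower. Of all 24127 retained probe sets 8.6% were higher and 16.9% lower. The members differed among themselves by less than genes at large, with an SD of 0.38 over members and 0.58 over all genes. Genes of 50 kb and above, which members nearly lack, made up 3639 of the 11272 genes and 1244 of the 1602 lower ones. No SD was taken over genes of like span, so the smaller SD cannot be read as a trait of the members.

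**Figure D1:**
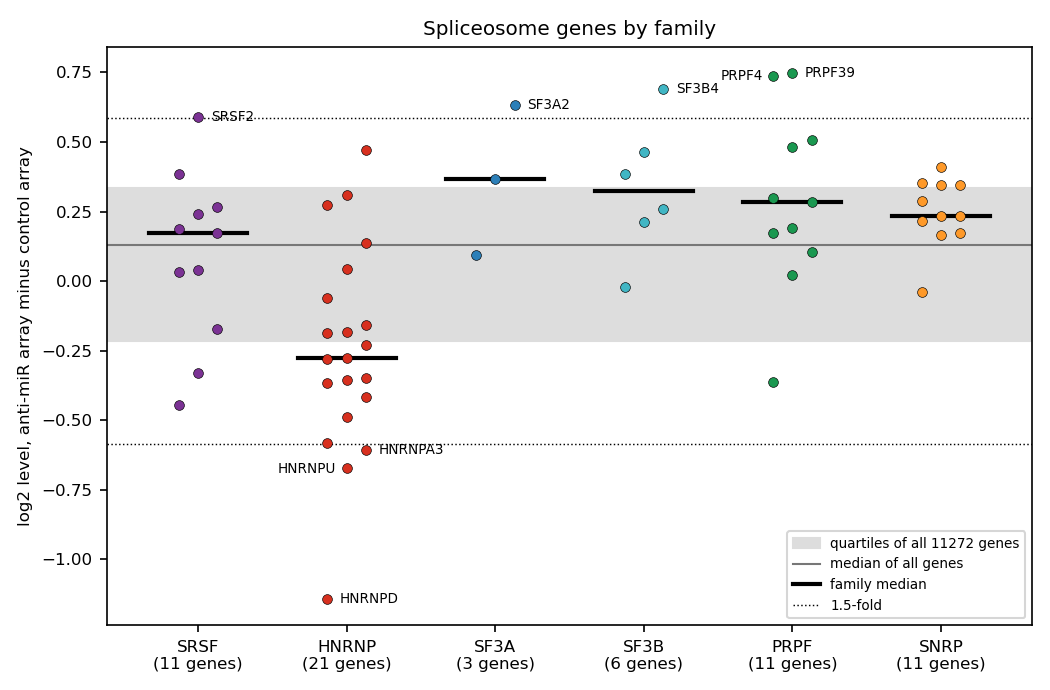
Each point is the log2 difference (anti-miR array minus control array) of 1 member, by family, with the family median as a bar and the median and quartiles of all 11272 genes as a line and a band. The HNRNP median of -0.28 lies below the band, and the other family medians lie between 0.17 and 0.37.

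The HNRNP family had a median difference of -0.28, or -0.41 relative to the median gene. Of its 21 genes 3 were at least 1.5-fold lower (14.3%, against 14.2% of all genes) and 0 were higher (against 8.23%). By genomic span, 2 of its 7 genes from 10 to 20 kb were lower (28.6%, against 3.01% of all genes). From 20 to 50 kb it was 1 of 8 (12.5%, against 8.06%), and under 10 kb 0 of 5 (against 1.90%). The 2 from 10 to 20 kb, HNRNPU and HNRNPA3, were short of 1.5-fold with the brightest and with the median probe set. Of its 80 retained probe sets 65 were lower on the anti-miR array.

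HNRNPD (Entrez 3184), also known as AUF1, binds AU-rich elements and takes part in mRNA decay. It had a level of 7.18 in anti-miR cells, against 8.32 in control cells. That is 2.21-fold lower, with a difference of -1.14 ± 0.38 (SD over 8 probe sets), the largest among the members. All 8 probe sets were lower on the anti-miR array, from -1.50 to -0.54, and the brightest lay at 9.25 in anti-miR cells, against 10.53 in control cells. HNRNPDL, its paralogue and a neighbouring protein-coding gene on chromosome 4 in the RefSeq table, had levels of 7.99 in anti-miR cells, against 8.47 in control cells. The difference was -0.49 ± 0.64 (SD over 5 probe sets), short of 1.5-fold, with 4 probe sets below 0 and 1 at 0.55.

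HNRNPU (Entrez 3192), a nuclear scaffold protein that binds chromatin and RNA, was 1.59-fold lower (8.99 in anti-miR cells, against 9.66 in control cells). Its difference was -0.67 ± 0.54 (SD over 6 probe sets). All 6 were lower, but they fell apart by size, with 3 between -0.26 and -0.22, a pair at -0.84 and -0.85, and 1 at -1.60. The probe set at -1.60 read 5.21 in anti-miR cells, against 6.81 in control cells, within the nonspecific range on both. The gene was short of 1.5-fold with the brightest probe set alone (-0.26), with the median of probe sets (-0.55), with no filter (-0.52) and with only probe sets above the nonspecific controls on both arrays (-0.49).

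HNRNPA3 (Entrez 220988), a shuttling protein close to HNRNPA1, was 1.52-fold lower (7.87 in anti-miR cells, against 8.48 in control cells). The difference was -0.60 ± 0.53 (SD over 4 probe sets), and all 4 were lower, from -1.34 to -0.13. The brightest probe set differed least, so that the gene is short of 1.5-fold when it stands alone (-0.13), when the median of probe sets is used (-0.47), with plain _at probe sets (-0.37) or when those it shares with its pseudogene are added (-0.54). HNRNPH3, which binds G-rich RNA, lay just short of the threshold at -0.58 ± 0.10 (SD over 3 probe sets), with 8.61 in anti-miR cells, against 9.19 in control cells. Of these genes it had the closest agreement between probe sets.

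**Figure D2:**
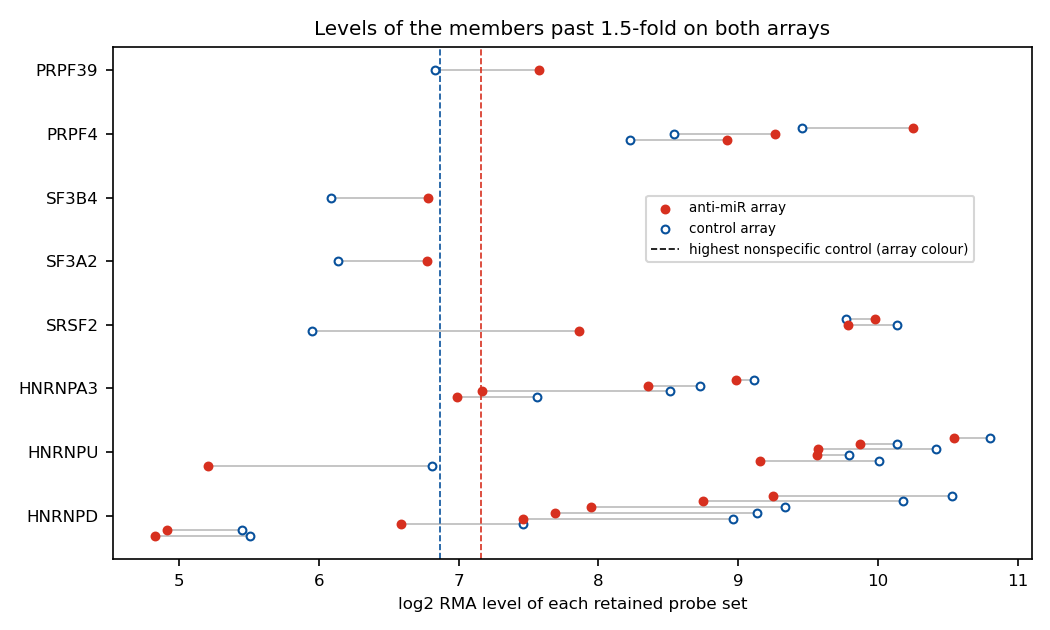
Log2 RMA level of each retained probe set on the anti-miR array (filled) and the control array (open), joined by a line, for the 8 members past 1.5-fold, with the highest nonspecific control of each array as a dashed line. SF3A2 and SF3B4 lie left of these lines on both arrays, and the probe sets of HNRNPD are all lower on the anti-miR array.

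The HNRNPF and HNRNPH proteins, which bind runs of G, did not move together. HNRNPF, measured by 7 probe sets, had 10.01 in anti-miR cells, against 9.70 in control cells, a difference of 0.31 ± 0.07 (SD over 7 probe sets). HNRNPH2 differed by -0.41 ± 0.10 (SD over 3 probe sets), and HNRNPH1 by 0.05 (1 probe set). HNRNPC, which binds runs of U and shields cryptic exons, differed by -0.36 ± 0.22 (SD over 6 probe sets). HNRNPM differed by -0.36 ± 0.26 (SD over 4 probe sets) and HNRNPR by -0.35 ± 0.30 (SD over 3 probe sets). The bright probe sets of HNRNPR differed by -0.15 and -0.20, and a dim one within the nonspecific range by -0.69. HNRNPK, a poly-C binding protein, had 10.42 in anti-miR cells, against 10.58 in control cells. Its 6 probe sets lay between -0.22 and -0.10, so a small difference was read alike by all of them. HNRNPLL (-0.28), HNRNPUL2 (-0.28), HNRNPUL1 (-0.23), HNRNPL (-0.19), HNRNPA1L2 (-0.18) and HNRNPA0 (-0.06) were lower by less than 1.5-fold. HNRNPAB, an RNA binding protein of the same A and B group, was on the other side at 0.28 ± 0.03 (SD over 3 probe sets).

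HNRNPA1, HNRNPA2B1 and SRSF2 each had 1 probe set that was far higher on the anti-miR array while others of the same gene were lower. HNRNPA1, which binds exonic silencers, had 4 probe sets between -0.30 and -0.19, with levels up to 12.06 in anti-miR cells, against 12.32 in control cells. Its other probe set, of the type s_at, whose probes match several transcripts, read 9.95 in anti-miR cells, against 8.29 in control cells, a difference of 1.66. The gene mean of 0.14 describes none of the 5. HNRNPA2B1, its close relative, had a probe set at 11.52 in anti-miR cells, against 11.79 in control cells (-0.27) and another at 7.88 in anti-miR cells, against 6.66 in control cells (1.22). The value of 6.66 lay within the nonspecific range, so the second difference is not an exact size. The mean of 0.47 ± 1.05 (SD over 2 probe sets), the highest of the family, rests on the dimmer of them.

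SRSF2 (Entrez 6427), also known as SC35, counted as 1.51-fold higher, with 9.21 in anti-miR cells, against 8.62 in control cells, but the difference was 0.59 ± 1.18 (SD over 3 probe sets). Its bright probe sets differed by -0.35 and 0.21. The third, of the type x_at that can bind related sequences, read 7.86 in anti-miR cells, against 5.95 in control cells, a difference of 1.91. The control value lay within the nonspecific range, so this is not an exact size. Without x_at probe sets SRSF2 differed by -0.07, and its call rests on that probe set alone. Such a split, with a probe set at least 1.5-fold higher and another lower in sign, was found in 3 of 48 members with several retained probe sets (6.25%), against 1.15% of 6263 genes. In HNRNPA2B1 and SRSF2 the higher probe set was within the nonspecific range in control cells. A range over 1 between probe sets was found in 6 of the 48 (12.5%), against 6.35% of those genes. Members had a median of 3 retained probe sets, against 2 over all genes, which gives more room for a split. Which transcripts these probe sets read was not tested.

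**Figure D3:**
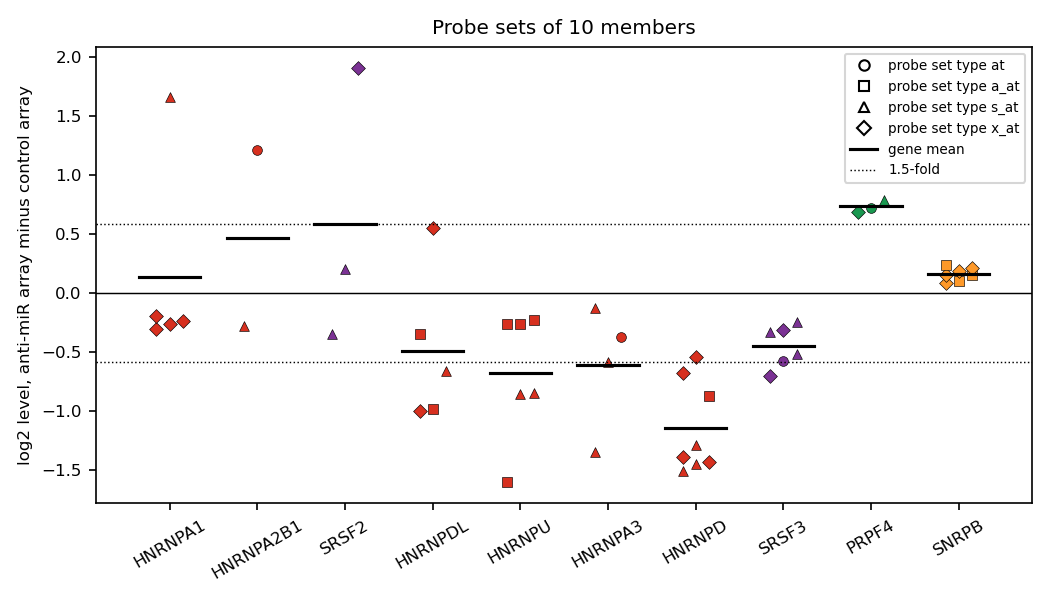
Log2 difference (anti-miR array minus control array) of every retained probe set of 10 members, with the marker giving the probe set type and a bar the gene mean. HNRNPA1, HNRNPA2B1 and SRSF2 each have a single probe set at 1.22 or above, while all 8 of HNRNPD lie below 0 and the 3 of PRPF4 lie close together.

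The SRSF family had a median difference of 0.17, or 0.04 relative to the median gene, and 8 of 11 measured genes lay above 0. The family lay below the median gene with the brightest probe set (-0.016 relative to it), without x_at probe sets (-0.039), with only probe sets above the nonspecific controls (-0.11) and with plain _at probe sets (-0.11). SRSF3, a small SR protein that binds CU-rich RNA, was lowest, with 9.09 in anti-miR cells, against 9.54 in control cells. Its difference was -0.44 ± 0.18 (SD over 6 probe sets), and all 6 were lower. SRSF1, the founding SR protein, had 7.85 in anti-miR cells, against 8.18 in control cells, a difference of -0.33 ± 0.17 (SD over 6 probe sets), with all 6 lower. SRSF11 differed by -0.17 ± 0.13 (SD over 6 probe sets), and again all 6 were lower. The other 8 genes had means above 0, that of SRSF2 only through 1 probe set.

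SRSF4 had 9.19 in anti-miR cells, against 8.81 in control cells, a difference of 0.38 (1 probe set). SRSF8 (0.27), SRSF6 (0.24 ± 0.06, SD over 2 probe sets), SRSF5 (0.19 ± 0.12, SD over 10 probe sets) and SRSF9 (0.17 ± 0.10, SD over 4 probe sets) lay between the median gene and that value. All 10 probe sets of SRSF5 and all 4 of SRSF9 were higher on the anti-miR array. SRSF7 (0.03) and SRSF10 (0.04 ± 0.15, SD over 7 probe sets) were close to 0, with probe sets on both sides.

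The SF3A and SF3B proteins of the U2 snRNP were higher on the anti-miR array, with medians of 0.37 over 3 genes and 0.32 over 6 genes (0.24 and 0.19 relative to the median gene). SF3A2 (Entrez 8175) had 6.77 in anti-miR cells, against 6.14 in control cells, 1.55-fold higher (1 probe set). SF3B4 (Entrez 10262), which helps to tether the U2 snRNP to pre-mRNA, had 6.78 in anti-miR cells, against 6.09 in control cells, 1.62-fold higher (1 probe set). Both probe sets lay within the nonspecific range on both arrays, so these folds are not exact sizes. With the median gene subtracted neither passed 1.5-fold, at 0.50 and 0.56.

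SF3A1, which binds the U1 snRNP as well, differed by 0.37 ± 0.13 (SD over 3 probe sets), with 8.49 in anti-miR cells, against 8.12 in control cells. SF3A3 was split, with probe sets at 0.31 and -0.12 and a mean of 0.10. SF3B2 had 9.44 in anti-miR cells, against 8.97 in control cells, and its probe sets gave 0.47 and 0.46. SF3B3 differed by 0.39 ± 0.23 (SD over 3 probe sets), SF3B5 by 0.26 ± 0.13 (SD over 2 probe sets) and SF3B6, which sits at the branch adenosine, by 0.21 (1 probe set). SF3B1, the large subunit around the branch site and a gene often mutated in blood cancers, did not follow them, with 8.07 in anti-miR cells, against 8.09 in control cells. Its difference was -0.02 ± 0.08 (SD over 3 probe sets), or -0.15 relative to the median gene.

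The PRPF family had a median difference of 0.28 (0.15 relative to the median gene), and 10 of 11 genes lay above 0. At 1.5-fold 2 genes were higher (18.2%, against 8.23% of all genes) and 0 lower (against 14.2% of all genes). PRPF4 (Entrez 9128), a U4/U6 snRNP protein, had 9.48 in anti-miR cells, against 8.74 in control cells. It was 1.67-fold higher, at 0.74 ± 0.05 (SD over 3 probe sets), and all 3 probe sets were above the nonspecific range on both arrays and past 1.5-fold. PRPF39 (Entrez 55015), a U1-associated factor, had 7.58 in anti-miR cells, against 6.83 in control cells, 1.68-fold higher (1 probe set). The control level lay within the nonspecific range, so this fold is not an exact size. Both genes stayed past 1.5-fold with the median gene subtracted, at 0.61 and 0.62.

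PRPF38A and PRPF38B, which act when the spliceosome is activated, were next in order. PRPF38A had 8.07 in anti-miR cells, against 7.59 in control cells, a difference of 0.48 ± 0.14 (SD over 2 probe sets). PRPF38B had 8.12 in anti-miR cells, against 7.62 in control cells, with probe sets at 0.77, 0.65 and 0.09. PRPF31 (0.30 ± 0.06, SD over 3 probe sets) and PRPF3 (0.11 ± 0.12, SD over 2 probe sets), partners of PRPF4 in the U4/U6 snRNP, differed by less. PRPF8, the protein at the heart of the catalytic core, had 9.34 in anti-miR cells, against 9.31 in control cells (0.02 ± 0.06, SD over 2 probe sets), below the median gene. PRPF19, a ubiquitin ligase, differed by 0.28, PRPF6, which bridges the parts of the tri-snRNP, by 0.19 and PRPF40B by 0.17 (1 probe set each). PRPF18, which acts in the second step of splicing, was the single PRPF gene below 0, with 6.77 in anti-miR cells, against 7.13 in control cells (-0.36, 1 probe set).

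SNRP genes were the most uniform family. They had a median difference of 0.23, or 0.10 relative to the median gene, and an SD of 0.12 over 11 genes. At 1.5-fold 0 genes were higher (against 8.23% of all genes) and 0 lower (against 14.2%). Of their 35 retained probe sets 34 were higher on the anti-miR array. The family median was smaller than the difference of the poly-A controls (0.32), and among nonspecific controls the GC-rich probe sets (class 15 upwards) had a median difference of 0.23. The medians of PRPF (0.28), SF3B (0.32) and SF3A (0.37) lay near the same poly-A difference. The part of either control difference in the values of these families was not tested.

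Of the Sm ring proteins, which encircle the snRNAs, 6 of 7 lay above the median gene. The values were 0.35 for SNRPG, 0.35 for SNRPD3, 0.34 for SNRPD2, 0.22 for SNRPE, 0.17 for SNRPF and 0.16 for SNRPB. SNRPB, at 10.92 in anti-miR cells, against 10.76 in control cells, was read alike by 7 probe sets (SD 0.06), and SNRPF by 4 (SD 0.05). For SNRPG the bright probe set differed by 0.07 and a dim one by 0.63, and the mean holds both, as for SNRPD3 with 0.17 and 0.52. SNRPD1 was the exception, with 8.97 in anti-miR cells, against 9.01 in control cells (-0.04 ± 0.19, SD over 3 probe sets). The U1 and U2 proteins had a median of 0.26, and the Sm ring 0.22. SNRPB2 of the U2 snRNP had 10.00 in anti-miR cells, against 9.58 in control cells, a difference of 0.41 ± 0.05 (SD over 4 probe sets). SNRPA1, its U2 partner, differed by 0.23 ± 0.06 (SD over 3 probe sets). SNRPA and SNRPC of the U1 snRNP differed by 0.29 ± 0.07 and 0.23 ± 0.11 (SD over 4 probe sets each).

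The 4 members left out by the filter were SRSF12, HNRNPCL1, HNRNPCL2 and SNRPN, the SmN protein made mainly in neurons. All their probe sets lay below the array median on both arrays, and none differed by 1.5-fold. SNRPN had 3.40 and 2.47 on the anti-miR array, against 3.65 and 2.65 on the control array. SRSF12 had 3.77 and 3.43 on the anti-miR array, against 3.62 and 3.25 on the control array.

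Differences on these arrays followed the genomic span of a gene, so the families were set beside all genes of like span. Under 10 kb the median of all genes was 0.26, against which 5 HNRNP genes had -0.06, 6 SRSF genes 0.22, 3 SF3B genes 0.26 and 4 SNRP genes 0.19. From 10 to 20 kb it was again 0.26, while 7 HNRNP genes had -0.28, 3 SRSF genes -0.33, 5 PRPF genes 0.48 and 6 SNRP genes 0.32. From 20 to 50 kb it was 0.15, and 8 HNRNP genes had -0.25, 4 PRPF genes 0.14, 2 SRSF genes 0.11 and 2 SF3A genes 0.23. At 50 kb and above it was -0.27, with HNRNPC at -0.36, SF3B3 at 0.39 and 2 PRPF genes at -0.08. The HNRNP value was below that of all genes in each class, although HNRNPA2B1, HNRNPAB and HNRNPF lay above theirs. PRPF and SNRP were above it only from 10 to 20 kb and, for PRPF, at 50 kb and above.

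**Figure D4:**
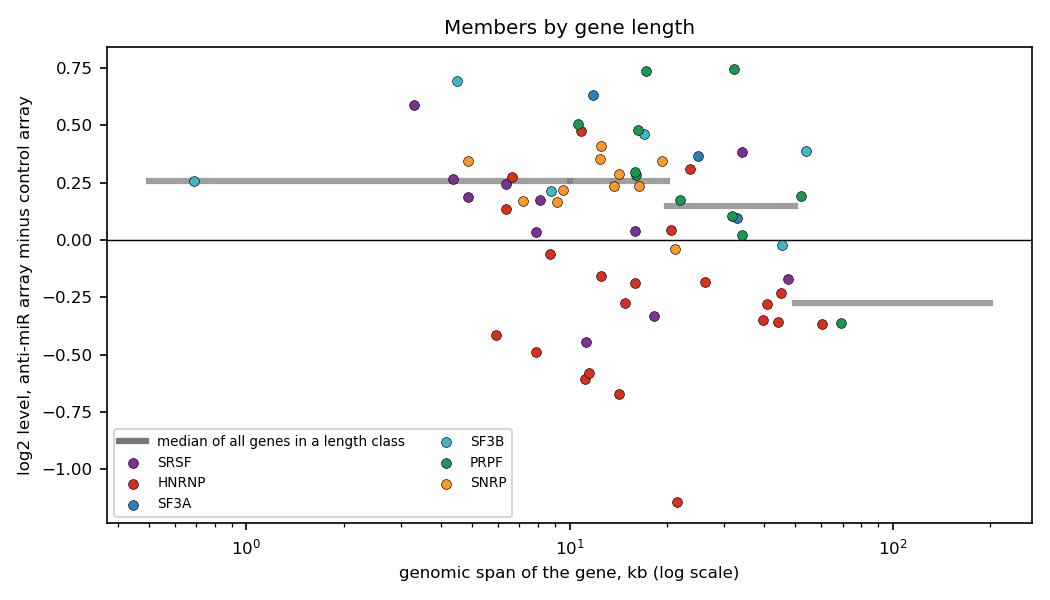
Log2 difference (anti-miR array minus control array) of each measured member against the genomic span of its gene in kb on a log scale, with a grey bar for the median of all genes in each of 4 length classes, the last of which is open-ended. HNRNP genes lie mostly below the bars, with HNRNPD lowest at -1.14, and HNRNPA2B1 (0.47) and HNRNPF (0.31) lie above them.

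Other genes of the machinery were described from 9 lists of 119 genes, of which 117 were measured. Their median was 0.17, with 11 at least 1.5-fold higher (9.40%, against 8.23% of all genes) and 12 lower (10.3%, against 14.2% of all genes). Partners of PRPF19 and related factors, which act in the active spliceosome, had a median of 0.33. Of 20 genes 5 were higher (25%, against 8.23% of all genes) and 0 lower (against 14.2%). These 5 span 10.0 to 25.0 kb. Of all genes 13.3% were higher from 10 to 20 kb and 8.84% from 20 to 50 kb. XAB2 was 1.68-fold higher (6.05 in anti-miR cells, against 5.31 in control cells, within the nonspecific range) and PPIL1, a cyclophilin, 1.63-fold higher (9.42 in anti-miR cells, against 8.72 in control cells). Of 21 other snRNP proteins (median 0.30) 3 were higher (14.3%, against 8.23% of all genes) and 1 lower (4.76%, against 14.2%). SNU13, which binds U4 snRNA together with PRPF31, was 1.85-fold higher (9.28 in anti-miR cells, against 8.39 in control cells). CD2BP2, a U5 protein, was 1.60-fold higher, not an exact size since its control level of 6.73 lay within the nonspecific range. The LSM ring had a median of 0.23 with 0 of 7 past 1.5-fold, the largest being LSM4 (0.51) and LSM2 (0.47). The exon junction complex had a median of 0.26, and its core protein RBM8A was 2.14-fold higher (7.85 in anti-miR cells, against 6.75 in control cells, the second within the nonspecific range), while RNPS1 differed by 0.43.

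Further HNRNP-type proteins outside the name rule lay mostly below the median gene. Their median was -0.16, with 3 of 14 lower (21.4%, against 14.2% of all genes) and 0 higher (8.23% of all genes), and 2 lay above the median gene. PTBP3, a paralogue of the polypyrimidine tract binding protein, was 2.02-fold lower (5.96 in anti-miR cells, against 6.98 in control cells). Its anti-miR mean lay within the nonspecific range, while 2 of its 5 probe sets lay above it on that array. SYNCRIP, also called hnRNP Q, was 1.73-fold lower (-0.79 ± 0.61, SD over 8 probe sets). SR-related proteins had a median of -0.12 with 1 of 10 lower (10%, against 14.2% of all genes), THRAP3 at 1.51-fold, and SON at -0.51. The factors of the 3' splice site and U2 snRNP had a median of 0.04, with the U2-associated U2SURP 1.61-fold lower and the helicase DDX46 1.83-fold lower. These were the 2 lower genes of 12 (16.7%, against 14.2% of all genes), and 0 were higher (against 8.23%). The DDX46 fold is not an exact size, since its mean of 7.08 in anti-miR cells lay within the nonspecific range. Of its 2 probe sets 1 lay above that range on the anti-miR array. PTBP3, THRAP3, DDX46 and U2SURP span 162 kb, 97.7 kb, 72.3 kb and 59.2 kb. Of all genes of 50 kb and above 34.2% were lower. The other lower HNRNP-type genes, SYNCRIP among them, span 20 to 50 kb, where 8.06% of all genes were lower.

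The kinases and importer that act on SR proteins held the largest differences. SRPK2 and SRPK1 phosphorylate the tails of SR proteins. SRPK2 had 4.83 in anti-miR cells, against 7.41 in control cells, 5.98-fold lower (-2.58 ± 0.35, SD over 3 probe sets). On the anti-miR array its probe sets lay within the nonspecific range, so the fold is not an exact size. SRPK1 had 6.73 in anti-miR cells, against 8.34 in control cells, 3.03-fold lower (-1.60 ± 0.78, SD over 3 probe sets). On the anti-miR array 2 of its 3 probe sets lay above that range, though the mean lay within it, so this is again not an exact size. Their genes span 285 kb and 88.1 kb, in the length class where the median of all genes was -0.27. Of 8 genes on this list 4 were lower (50%, against 14.2% of all genes) and 1, the kinase CLK2, was higher (12.5%, against 8.23% of all genes). All 4 lower genes, SRPK1, SRPK2, DYRK1A and TNPO3, span more than 50 kb, and of all genes that long 34.2% were lower. In the Sm core assembly list the median was 0.13, with GEMIN4 1.59-fold higher. GEMIN8 counted as lower (-0.79), but all its probe sets lay within the nonspecific range on the anti-miR array, so this is not an exact size.

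**Figure D5:**
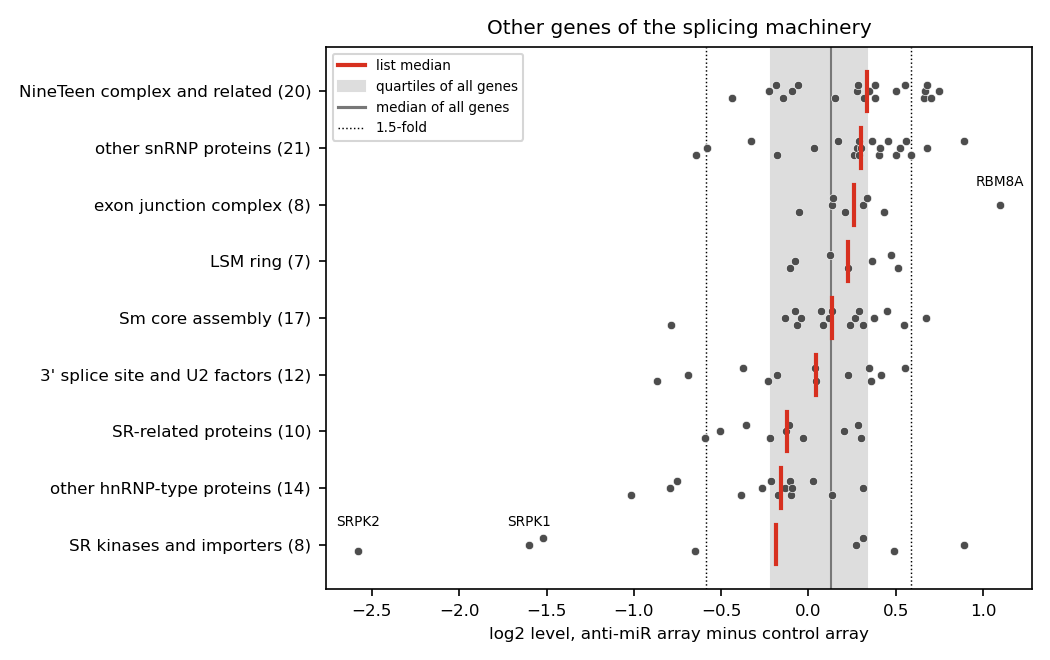
Log2 difference (anti-miR array minus control array) of 117 further genes in 9 lists, with the list median as a red bar and the median and quartiles of all genes as a line and a band. SRPK2 at -2.58 and SRPK1 at -1.60 lie far left in the list of kinases and importers, whose median is -0.19, and RBM8A at 1.10 lies far right.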

How the data were processed

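Total RNA of GFP-SAS cells was labelled with biotin for 3' expression arrays, 1 per group, per the labels' protocols. The deposited values are log2 levels per probe set, made by the authors by RMA according to the submitters' processing notes. Which software was used, and which arrays were normalized jointly, is not stated there. The table held 49386 probe sets. Of the 45253 non-control probe sets naming a single gene, 45172 had an Entrez ID in the RefSeq table (GRCh38.p14), which gave symbols, gene types and spans. The files name no genome build. Probe sets reaching the median of their array at least once (24127) were retained and averaged per gene. Genes were counted past 1.5-fold, with no test. The counting code was run on simulated data with little noise and planted differences well past the threshold. That run checks the code and not the calls on these arrays. The genes named by rule were the members past 1.5-fold, each family's highest, lowest and most divergent member, and up to 2 genes per further list. The remaining members and CLK2 were named after their values were seen. The members and lists were chosen with earlier results of these data known. The alternatives changed the filter (none, or the 75th percentile), the summary (brightest or median probe set), the centring (median, or lowess with fraction 0.3), the threshold (2-fold), the probe set types (plain _at, or no _x_at) and the symbols (those of the platform). Adding probe sets of several genes, and keeping only those above the nonspecific controls, were chosen after seeing the data. The number of arrays limits the precision. Python 3.11.15 was used with numpy 2.4.6, pandas 2.3.3, statsmodels 0.14.6 and matplotlib 3.10.9.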

Additional observations from a re-analysis of the deposited data

Results flagged for a closer look

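A probe set annotated to both SF3B4 and GARIN2, outside the gene comparison because it names several genes, was 0.69 higher on the anti-miR array (8.33, against 7.63 on the control array), which is 1.62-fold. Another of the same pair of genes was 0.53 higher (9.35, against 8.82).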

How the results depend on the processing

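No paired analysis was possible because only 1 array was made per group, and for that reason no array could be left out. Against 5 members higher and 3 lower at 1.5-fold, centring on the median of all genes left 2 higher and 5 lower, and a lowess trend 3 higher and 5 lower. At 2-fold there were 0 higher and 1 lower. Apart from the 2-fold threshold, shares of all genes were not counted under the alternatives, so these counts have no background beside them. With plain _at probe sets, which measured 20 members, there were 3 higher (PRPF4, SNRPG and HNRNPA2B1) and 1 lower (HNRNPR), and the SF3B median was 0.0075. The SNRPG probe set (4.93 on the anti-miR array, against 4.30 on the control array) lay within the nonspecific range on both. So did that of HNRNPR (4.18, against 4.88). Without _x_at probe sets there were 3 higher, namely PRPF4, PRPF39 and HNRNPA1 (1.66, not past 1.5-fold before), and 4 lower, while SF3A2 and SF3B4 were not measured. With only probe sets above the nonspecific controls on both arrays, chosen after seeing the data, there were 1 higher and 2 lower among 55. SRSF2 differed by -0.35 with its brightest probe set, and by -0.070 both without _x_at probe sets and above the nonspecific controls. The family medians kept their sign under each of these alternatives, but relative to the median gene of the same setting SF3B lay at -0.12 with plain _at probe sets, and SRSF between -0.11 and -0.016 in 4 settings. Of the 8 members past 1.5-fold, 5 stayed past it with the median or the brightest probe set, 7 with no filter or with probe sets of several genes added, and 8 with the 75th percentile filter. Signal over background limits SF3A2, SF3B4 and PRPF39, which have no probe set above the nonspecific controls on both arrays, and HNRNPU (-0.49) and SRSF2, which are short of 1.5-fold on such probe sets.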

Other observations

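The 3 probe sets annotated to both SNRPN and SNURF, which share an imprinted transcript, were all lower on the anti-miR array. They read 6.48, 4.91 and 5.43 on the anti-miR array, against 7.06, 6.22 and 6.62 on the control array, with differences of -0.58, -1.31 and -1.19. The SNRPN probe sets with a single symbol were dim on both arrays and differed by -0.25 and -0.18. All but 1 of these values lie within the nonspecific range of their array, the exception being 7.06, so the sizes are not exact.

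Of the other probe sets that name a member together with another gene, those of HNRNPA3 and its pseudogene HNRNPA3P1 differed by -0.47 and -0.35, and those of HNRNPA1 and its relatives by -0.24 and -0.32. The probe set of HNRNPM and DYNC1I2 differed by -0.30, that of HNRNPL and ECH1 by 0.40, and that of SNRPG and SNRPGP15 by 0.08. Among members with several retained probe sets 77.1% had them all in the same direction, against 79.1% of such genes at large.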
